A study of Homo sapiens with 16 samples.

Results

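The transcripts of 9 matrix proteoglycan genes were followed through a cytokine model of inflamed gut fibroblasts. The genes were taken by symbol: the small leucine-rich proteoglycans DCN (decorin), LUM (lumican), BGN (biglycan), ASPN (asporin), OGN (osteoglycin), PRELP and FMOD (fibromodulin), and the large proteoglycans VCAN (versican) and HSPG2 (perlecan). They made up 9 of the 40663 gene symbols measured. The human colon fibroblast line Ccd18-Co was grown in 16 cultures, seeded at 25000 cells in 48-well plates, and profiled by bulk RNA sequencing in 4 groups of 4. Unstimulated cells received only the DMSO solvent. In the other groups, cells were pulsed 3 times for 72 h with IL-1B (0.1 ng/ml) together with OSM, TNF and IL-17A (10 ng/ml of each), each pulse being followed by 96 h of recovery, and a week of rest at the end. They then received, for 5 days, DMSO alone (the vehicle group), 250 nM belinostat, an inhibitor of histone deacetylases, or 10 µM GSK-J4, an inhibitor of the demethylases that act on histone H3 lysine 27. RNA was taken 2 weeks after the compounds. Each compound was given at a single dose, and the doses differ. These doses and numbers are those of the sample labels. The study's text gives a higher belinostat dose for its assays in general, and a lower GSK-J4 dose for its CXCL5 protein measurement. It also differs in places on the IL-1B concentration and the number of replicates. All groups derive from a single line, and the labels call the libraries replicates without saying whether they came from separate experiments. The p-values therefore measure the spread between these cultures, which may in part be technical.

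Small leucine-rich proteoglycans are secreted proteins whose repeats form a curved core that binds collagen, and most carry chains of chondroitin, dermatan or keratan sulfate. They set the spacing and thickness of collagen fibrils, and decorin and biglycan also bind growth factors of the TGF-beta family. Versican is a hyaluronan-binding chondroitin sulfate proteoglycan of loose, provisional matrix, and perlecan is a heparan sulfate proteoglycan of basement membranes. In the intestine, fibroblasts are a main source of these proteins.

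Several of the genes lie in clusters. In the GENCODE annotation of GRCh38, LUM (chr12:91102629-91111494) and DCN (chr12:91140484-91183217) are neighbours on the minus strand, 29.0 kb apart. OGN (chr9:92383268-92404696) and ASPN (chr9:92456205-92482506) are also on the minus strand, with OMD between them. FMOD (chr1:203340628-203351758, minus strand) and PRELP (chr1:203475806-203491352, plus strand) are separated by 124 kb. BGN (chrX:153494980-153509546, plus strand), VCAN (chr5:83471618-83582303, plus strand) and HSPG2 (chr1:21822244-21937310, minus strand) stand alone.

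BGN and VCAN were the members called between the compound groups, and both compounds act on chromatin, so the sequence just upstream of each gene is shown. The RefSeq promoter table of GRCh38.p14 held 7 of the 9 members. DCN and LUM are not shown. The sequences read 5′ to 3′ on the plus strand. Capitals mark the GC box GGGCGG or its reverse complement CCGCCC. BGN is given at chrX:153494730-153494979 and VCAN at chr5:83471494-83471617, each ending at the base before the annotated start.
BGN: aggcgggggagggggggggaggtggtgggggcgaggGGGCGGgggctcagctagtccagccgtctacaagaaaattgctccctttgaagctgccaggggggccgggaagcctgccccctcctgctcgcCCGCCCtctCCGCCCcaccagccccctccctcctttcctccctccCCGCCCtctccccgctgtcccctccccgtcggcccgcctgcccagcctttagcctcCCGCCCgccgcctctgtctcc
VCAN: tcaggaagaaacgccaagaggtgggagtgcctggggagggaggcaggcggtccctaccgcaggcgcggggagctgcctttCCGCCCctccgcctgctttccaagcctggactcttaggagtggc

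Over the 250 bases before the RefSeq start, BGN had a GC content of 74.0%, 16 CpG pairs and 5 GC boxes, and VCAN had 60.8%, 12 CpG pairs and 1 GC box. The VCAN window runs past the sequence shown to chr5:83471743, so its later part lies within the gene as annotated in GENCODE. The median of all 35116 promoters in the table was 58.0% GC and 11 CpG pairs, and 42.6% of them held a GC box. Neither window held the TATA box TATAAA, found in 10.7% of promoters, or the AP-1 site TGANTCA, found in 6.57%, on either strand. HSPG2 had the richest window of the members, with 82.8% GC and 8 GC boxes. The OGN and ASPN windows stood at the other end, with 31.2% to 36.0% GC for the 2 OGN windows and 32.4% for ASPN, and no GC box. These matches describe the letters in the window only.

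The libraries held 14.4 to 19.5 M estimated counts, and the 9 members took 0.986% to 1.22% of them. All 8 fibroblast markers listed (collagens COL1A1, COL1A2 and COL3A1, VIM, PDGFRA, PDGFRB, THY1 and FAP) were expressed in every group. Of the epithelial markers, EPCAM, CDH1 and KRT20 did not exceed 14.5 normalized counts in any library, whereas the keratins KRT8 and KRT18 were expressed in every group and higher with belinostat than with vehicle (0.36 ± 0.08 and 0.84 ± 0.16, both called). Of the immune markers, PTPRC, CD3E, CSF1R and ITGAM did not exceed 7.81, whereas CD14 had group means of 71.8 to 196 and was higher with belinostat than in unstimulated cells (1.45 ± 0.35, called). Of the endothelial markers, CDH5, KDR and PECAM1 did not exceed 7.64 and VWF 39.1, whereas TEK had group means of 7582 to 9322 and was higher with belinostat than with vehicle (0.18 ± 0.06, called). The glial markers summed to at most 12.4. The part of these markers in the results was not tested. Belinostat replicate 17 stood apart from its group, with a mean Pearson's r across genes of 0.990 to its own group where the other libraries had 0.993 to 0.997. It gave the lowest value of its group for DCN, LUM, BGN, PRELP, ASPN, FMOD and HSPG2 and the highest for VCAN, so values without it are given where they differ in call.

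Compared per kilobase of the canonical transcript, the members spanned over 3 orders of magnitude. DCN stood first in every group, at 22522.6 to 22906 normalized counts per kb. LUM was second, at 7333 ± 560.0 (SD, n = 4) per kb in unstimulated cells and 10174 ± 1744 under belinostat. HSPG2 came next, at 561 to 682 per kb, and in the vehicle and belinostat groups its libraries overlapped those of VCAN. FMOD, VCAN and BGN followed in an order that changed with the group. In unstimulated cells, FMOD, VCAN and BGN lay at 285, 283 and 238 per kb with overlapping neighbours, whereas under belinostat VCAN was at 599 ± 182 per kb, FMOD was at 313 ± 17.3 and BGN at 201 ± 14.3, with no overlap among them. ASPN (12.2 to 17.9 per kb) and PRELP (5.13 to 9.18 per kb) were low, and their libraries overlapped except under GSK-J4. OGN was near zero. When the median length of the coding transcripts was used instead, HSPG2 passed LUM in the mean in all groups but GSK-J4, since most of its annotated transcripts are short. DCN stayed first, at 206051 per kb in unstimulated cells. VCAN then had rank 4 in every group, and the FMOD and BGN libraries overlapped under belinostat. The order of FMOD, VCAN and BGN therefore depends on the length chosen.

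**Figure D1:**
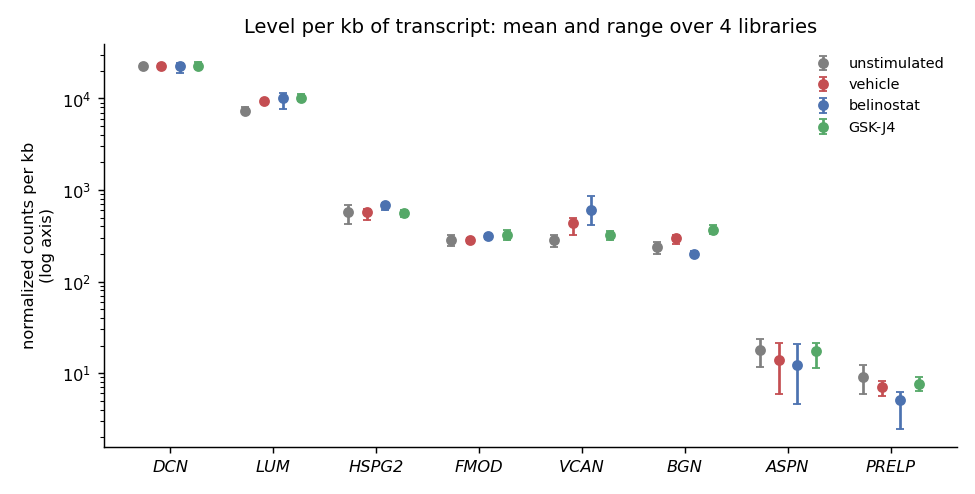
Normalized counts per kb of transcript (log axis) for 8 members, with points at the group mean and bars from the lowest to the highest of 4 libraries. DCN sits near 22605 per kb in unstimulated cells and close to it in every group, while BGN and VCAN separate in opposite directions between belinostat (201 and 599 per kb) and GSK-J4 (362 and 321 per kb).

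Across the comparisons, between 0 and 3 of the 8 testable members passed the test, and the genes that moved were LUM, BGN, VCAN and PRELP. Calls required an adjusted p under 0.05 (Benjamini-Hochberg, over all genes tested). After the cytokine pulses, LUM alone was called, higher in vehicle than in unstimulated cells, where 1.74% of all genes tested were called. Belinostat against vehicle gave BGN, lower, beside a background of 6.26%. GSK-J4 against vehicle gave 0 members by DESeq2 and 0 by edgeR, beside a background of 1.92%. At an unadjusted p under 0.05 there were 3 members, and 1321 of the 13197 genes tested. Between the compounds, BGN was lower and VCAN higher under belinostat, against a background of 12.2% (6.01% lower, 6.18% higher). Against unstimulated cells, belinostat gave LUM and VCAN higher and PRELP lower (background 10.3%, with 5.51% higher and 4.77% lower), and GSK-J4 gave LUM and BGN higher (background 5.55%, with 3.18% higher and 2.37% lower). The median log2 fold change of the 8 members lay between -0.03 and 0.13 in these 6 comparisons, where the median of all genes tested lay within 0.01 of zero. The vehicle and unstimulated libraries each serve in several of these comparisons, so the comparisons are not independent of each other.

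**Figure D2:**
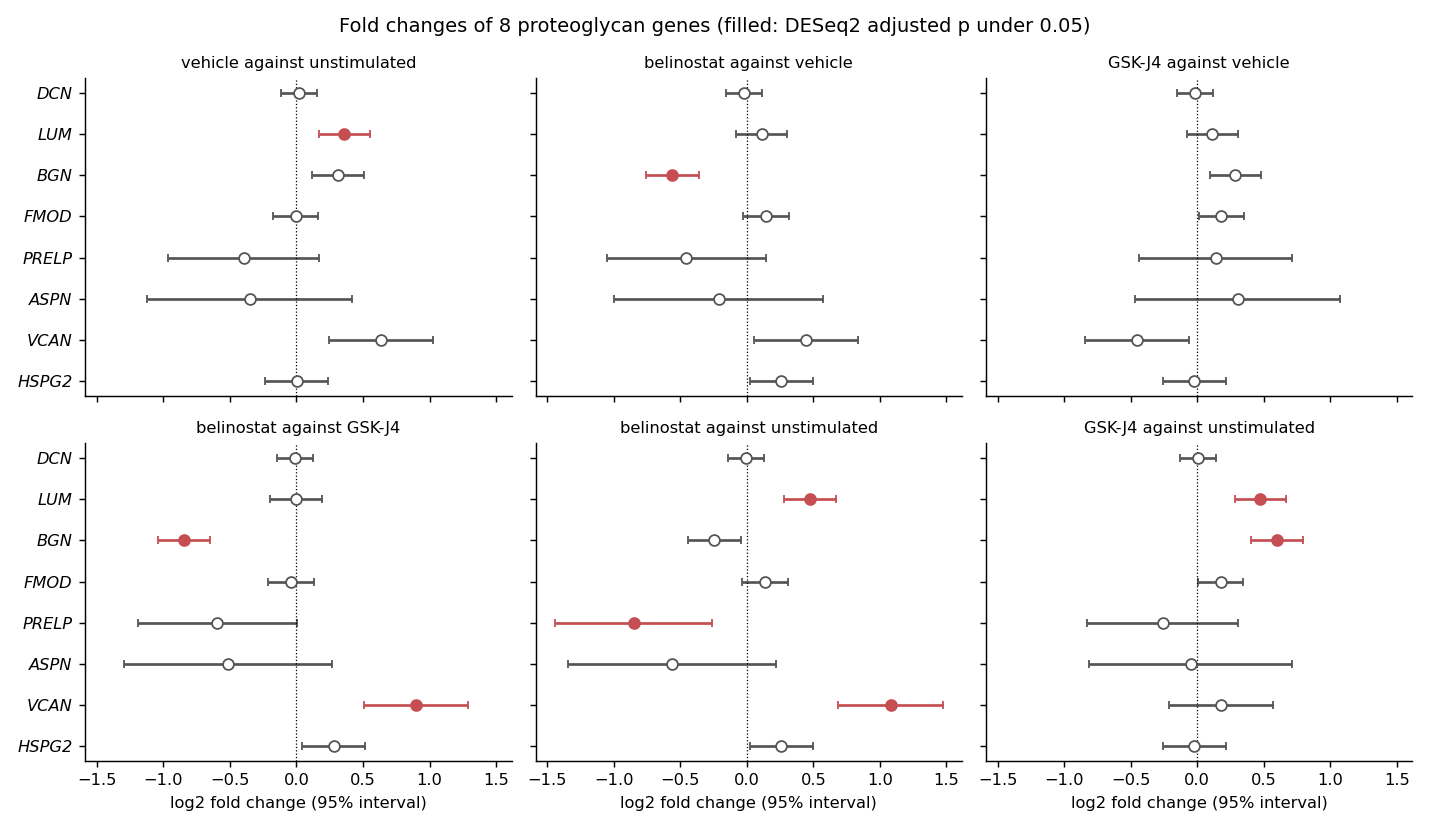
DESeq2 log2 fold changes of 8 members in 6 comparisons, with bars for 95% intervals and filled points for adjusted p under 0.05. DCN stays between -0.02 and 0.02 throughout, BGN moves to -0.56 under belinostat against vehicle, and VCAN reaches 1.08 in belinostat against unstimulated cells.

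DCN, the decorin gene and the most abundant member, did not move. Its normalized counts in replicate order were 158379.9, 161043, 147646 and 152322 in unstimulated cells, 162085, 160626, 155556 and 149369 with vehicle, 130947, 166355, 160802 and 159016 with belinostat, and 149922, 170138, 156778 and 144985 with GSK-J4. The 4 groups overlapped fully, and the single low value was belinostat replicate 17. Every log2 fold change was between -0.02 and 0.02 with an SE of 0.07, and none was called under any alternative. Belinostat against vehicle gave -0.02 with a 95% interval of -0.16 to 0.11, which bounds the change at that size. DCN alone took 0.751% to 0.951% of all counts in a library.

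LUM, its neighbour on chromosome 12, encodes the keratan sulfate proteoglycan lumican, which binds the same collagen fibrils, and it was higher after the cytokine pulses. Normalized counts were 18313, 19198, 21752 and 19087 in unstimulated cells and 25578, 25953, 25505 and 23581 with vehicle. Every vehicle library was above every unstimulated library, as for 6.93% of genes tested. The log2 fold change was 0.36 ± 0.10 (SE), 28.4% higher, with a DESeq2 adjusted p of 0.0221. That call did not hold in edgeR (adjusted p = 0.115) or without any of 6 of the 8 libraries compared, namely unstimulated replicates 1, 2 and 4 and vehicle replicates 13, 14 and 15, where the log2 fold change stayed between 0.33 and 0.35. In bulk RNA, more cells of a lumican-rich type and more lumican RNA per cell cannot be told apart.

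Neither compound returned LUM to the unstimulated level. With belinostat the libraries gave 20382, 30782, 28100.3 and 29431, and with GSK-J4 26857, 29617, 27159 and 25338 normalized counts. All 4 GSK-J4 libraries exceeded the unstimulated ones, where 11.9% of genes tested did not overlap in either direction. The belinostat libraries other than replicate 17 also exceeded the unstimulated ones, and replicate 17 fell among them. Against unstimulated cells the log2 fold change was 0.47 ± 0.10 for belinostat (DESeq2 adjusted p = 8.27e-05) and 0.48 ± 0.10 for GSK-J4 (DESeq2 adjusted p = 0.000117), and both calls held under every alternative. Against vehicle it was 0.11 ± 0.10 and 0.12 ± 0.10, neither called. Without belinostat replicate 17, the mean of the belinostat libraries was 29438 ± 1341 (SD, n = 3) and belinostat against vehicle was called at 0.23 ± 0.06 (DESeq2 adjusted p = 0.00737). The compounds did not differ detectably, with a 95% interval of -0.20 to 0.19 for the log2 difference.

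As DCN was steady, LUM also rose relative to it. LUM counts were 12.7% ± 1.42 (SD, n = 4) of DCN counts in unstimulated cells, 16.0% ± 0.301 with vehicle, 17.5% ± 1.39 with belinostat and 17.5% ± 0.263 with GSK-J4. The highest unstimulated library was at 14.7% and the lowest of the other 12 at 15.6%, so this ratio separated unstimulated cells from all pulsed cells, belinostat replicate 17 included. The ratio was chosen after the values were seen and was not tested.

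BGN, the biglycan gene, separated the compounds. Biglycan is the closest relative of decorin, and in its free form it also acts as a ligand of innate immune receptors. Its normalized counts were 475, 538, 634 and 596 in unstimulated cells, 713, 752, 714 and 613 with vehicle, 444, 513, 491 and 448 with belinostat, and 812, 976, 772 and 845 with GSK-J4. All belinostat libraries were below all vehicle libraries, and all GSK-J4 libraries were above them. Group means were 560.4 ± 69.5, 698 ± 59.4, 474 ± 33.7 and 851 ± 88.3 (SD, n = 4).

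Belinostat against vehicle gave BGN a log2 fold change of -0.56 ± 0.10, a change of -32.2% (DESeq2 adjusted p = 3.15e-06). Belinostat against GSK-J4 gave -0.85 ± 0.10, a change of -44.4% (DESeq2 adjusted p = 7.56e-15). Both calls held under all alternatives, including the loss of belinostat replicate 17. Such a lack of overlap was seen for 11.4% of genes in the former comparison and 17.0% in the latter. GSK-J4 against vehicle gave 0.29 ± 0.10, which was not called (DESeq2 adjusted p = 0.12) although the groups did not overlap, as for 10.0% of genes. It was called when only those groups were fitted (0.29, adjusted p = 0.0375) and with 2 surrogate variables (0.32, adjusted p = 0.00437). Against unstimulated cells, GSK-J4 gave 0.60 ± 0.10 (DESeq2 adjusted p = 2.36e-07), 51.8% higher and held in all alternatives, without overlap, as for 11.9% of genes.

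The cytokine pulses themselves gave BGN a log2 fold change of 0.32 ± 0.10 that missed the threshold (DESeq2 adjusted p = 0.0772), with 1 vehicle library at 613 below the highest unstimulated library at 634. It was called without unstimulated replicate 3 (0.38), without vehicle replicate 16 (0.37) and with 2 surrogate variables (0.30). Belinostat against unstimulated cells was also not called, at -0.24 ± 0.10 (DESeq2 adjusted p = 0.114), with calls at -0.32 without unstimulated replicate 1 and at -0.29 with surrogate variables. Among the 3 pulsed groups, the summed fibroblast markers moved in the same order as BGN. They ranged over 280472 to 318483 normalized counts with belinostat, 329181 to 350056 with vehicle and 368868 to 387293 with GSK-J4. Unstimulated cells had 312724 to 343240, which overlapped both belinostat and vehicle. Of these 8 markers, 2 were called lower with belinostat against vehicle, COL1A1 among them. With GSK-J4 against vehicle 2 were called higher, the collagens COL1A2 and COL3A1. These collagen calls were lost in edgeR. By sign alone, 7 markers were lower and 1 higher with belinostat, and 6 were higher and 2 lower with GSK-J4. Over all genes tested, 3.13% were called lower with belinostat and 1.10% higher with GSK-J4. The 6 epithelial markers, of which KRT20 was at 0, moved the other way under belinostat, with sums of 1982 to 3474 against 1556 to 1970.1 with vehicle and 1496 to 1713 with GSK-J4. The part of either list in the BGN difference was not tested.

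VCAN, the versican gene, differed between the compounds in the opposite direction to BGN. Normalized counts were 2955, 3296, 4035 and 3692 in unstimulated cells, 3979, 5680.3, 5895 and 6135 with vehicle, 10513, 6976, 5135 and 6937 with belinostat, and 4254, 3538, 3698 and 4354 with GSK-J4. All belinostat libraries were above all GSK-J4 and all unstimulated ones. The vehicle libraries overlapped every other group, with 1 of 4 at the level of the unstimulated and GSK-J4 libraries and the others within the belinostat range. Group means were 3494 ± 469.5, 5423 ± 979.9, 7390.3 ± 2252 and 3961 ± 404 (SD, n = 4).

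With belinostat, VCAN was 86.6% higher than with GSK-J4, a log2 fold change of 0.90 ± 0.20 (DESeq2 adjusted p = 0.000165), and 112% higher than in unstimulated cells, at 1.08 ± 0.20 (DESeq2 adjusted p = 4.28e-06). Both held under every alternative, and without replicate 17 the belinostat mean was 6349 ± 1052 (SD, n = 3). The background of groups without overlap was 17.0% for belinostat against GSK-J4 and 12.3% for belinostat against unstimulated cells. Against the vehicle group neither compound passed the test. Belinostat gave 0.45 ± 0.20 (DESeq2 adjusted p = 0.214) and GSK-J4 gave -0.45 ± 0.20 (DESeq2 adjusted p = 0.353). Belinostat against vehicle was called without belinostat replicate 19 (0.59 ± 0.16, adjusted p = 0.00705). The cytokine pulses gave 0.63 ± 0.20, not called (DESeq2 adjusted p = 0.0771), and this was called when only those groups were fitted (0.63), with 2 surrogate variables (0.63) and without vehicle replicate 13 (0.76). GSK-J4 against unstimulated cells gave 0.18 with a 95% interval of -0.21 to 0.57.

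The ratio of VCAN to BGN counts was chosen after the values were seen, without a test. It was 6.23 ± 0.0989 (SD, n = 4) in unstimulated cells, where its spread was small although each gene varied, 7.85 ± 1.83 with vehicle, 15.8 ± 5.64 with belinostat and 4.70 ± 0.744 with GSK-J4. The lowest belinostat ratio was 10.5 and the highest vehicle ratio 10.0, whereas every GSK-J4 library lay at or below 5.24 and the lowest vehicle library was at 5.58.

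**Figure D3:**
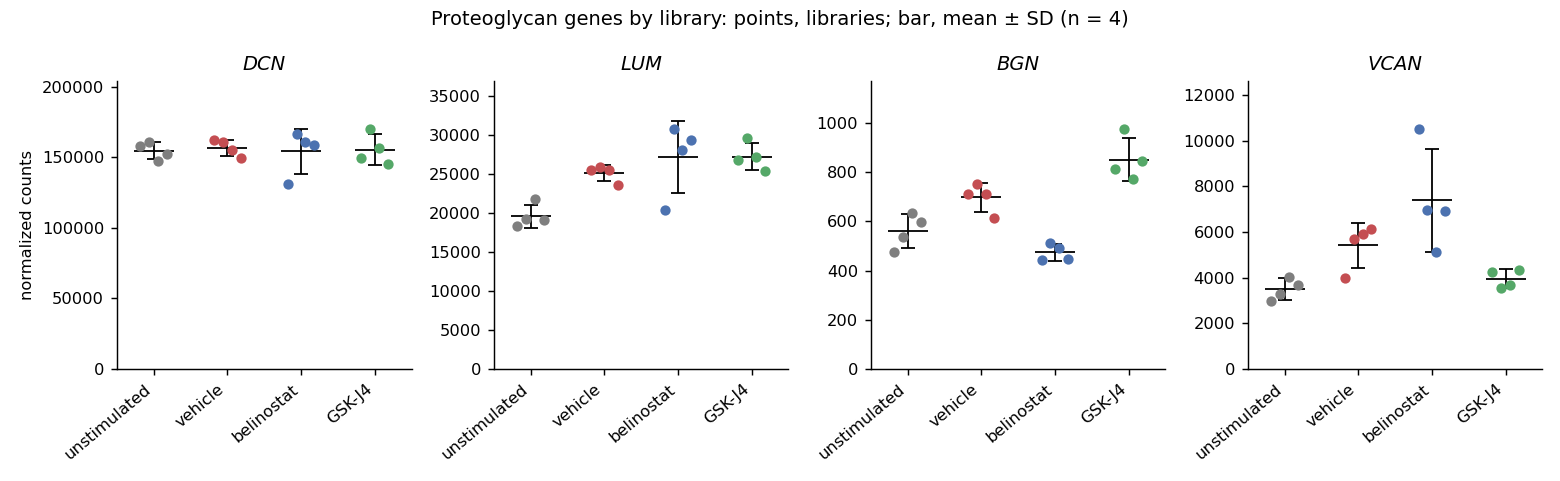
Normalized counts (linear axes from 0) of DCN, LUM, BGN and VCAN in each of 16 libraries, as points, with the mean and SD of 4 libraries per group. BGN is lowest under belinostat (474) and highest under GSK-J4 (851), VCAN has its highest mean under belinostat (7390.3), and DCN has similar means in all groups.

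HSPG2, the perlecan gene, was not called in any comparison. Normalized counts were 6101, 7753, 9839 and 8999 in unstimulated cells, 8791, 8815, 8383 and 6732 with vehicle, 8609, 10024, 10444 and 10048 with belinostat, and 8618, 7929, 7308 and 8351 with GSK-J4. The unstimulated libraries spread the most and covered nearly the range of all groups. Belinostat had the highest mean, with log2 fold changes of 0.26 ± 0.12 against vehicle, 0.28 ± 0.12 against GSK-J4 and 0.26 ± 0.12 against unstimulated cells. Only the highest 3 belinostat libraries lay above the other groups. The difference from GSK-J4 was called when only those groups were fitted (0.28, adjusted p = 0.00376) or without belinostat replicate 17 (0.34, adjusted p = 0.0418), and that from unstimulated cells without unstimulated replicate 3 (0.36, adjusted p = 0.0229).

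FMOD encodes fibromodulin, a keratan sulfate proteoglycan that takes part in collagen cross-linking and fibril growth. It gave 724, 867, 941 and 818 normalized counts in unstimulated cells, 889, 857, 816 and 775 with vehicle, 852, 917, 968 and 949 with belinostat, and 934, 1075, 935 and 843 with GSK-J4. The groups overlapped, and no comparison was called under any alternative. The largest log2 fold change was 0.18 ± 0.09 for GSK-J4 against vehicle (DESeq2 adjusted p = 0.432).

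PRELP, whose protein anchors basement membranes to connective tissue, was expressed at low counts. Its normalized counts were 33.8, 41.0, 65.7 and 71.3 in unstimulated cells, 47.6, 45.0, 36.3 and 32.3 with vehicle, 14.3, 34.2, 35.6 and 34.3 with belinostat, and 36.6, 52.2, 51.8 and 36.7 with GSK-J4. Belinostat against unstimulated cells gave -0.85 ± 0.30 (DESeq2 adjusted p = 0.0472), with overlapping libraries. The call was lost in edgeR (adjusted p = 0.0724), when only those groups were fitted, and without belinostat replicate 17, 18 or 20 or unstimulated replicate 3 or 4. Without replicate 17 the log2 fold change was -0.61 ± 0.29. All belinostat libraries lay below all GSK-J4 libraries, where 17.0% of genes tested did not overlap in either direction. This difference of -0.59 ± 0.31 was not called (DESeq2 adjusted p = 0.226) unless 2 surrogate variables were included (-0.89, adjusted p = 0.0145).

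ASPN, whose protein asporin binds collagen and calcium and inhibits TGF-beta signalling, was measured at 11.5 to 57.7 normalized counts in the 16 libraries. The groups overlapped, group means lay between 30.2 and 44.2, and no comparison was called. At this level the intervals were wide. Belinostat against unstimulated cells, for example, gave -0.56 with a 95% interval of -1.34 to 0.22. OGN, its neighbour on chromosome 9, had a single count over all 16 libraries and was at 0 in 15 of them. A count of 0 allows up to 3 counts in a library, and OGN was not testable.

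**Figure D4:**
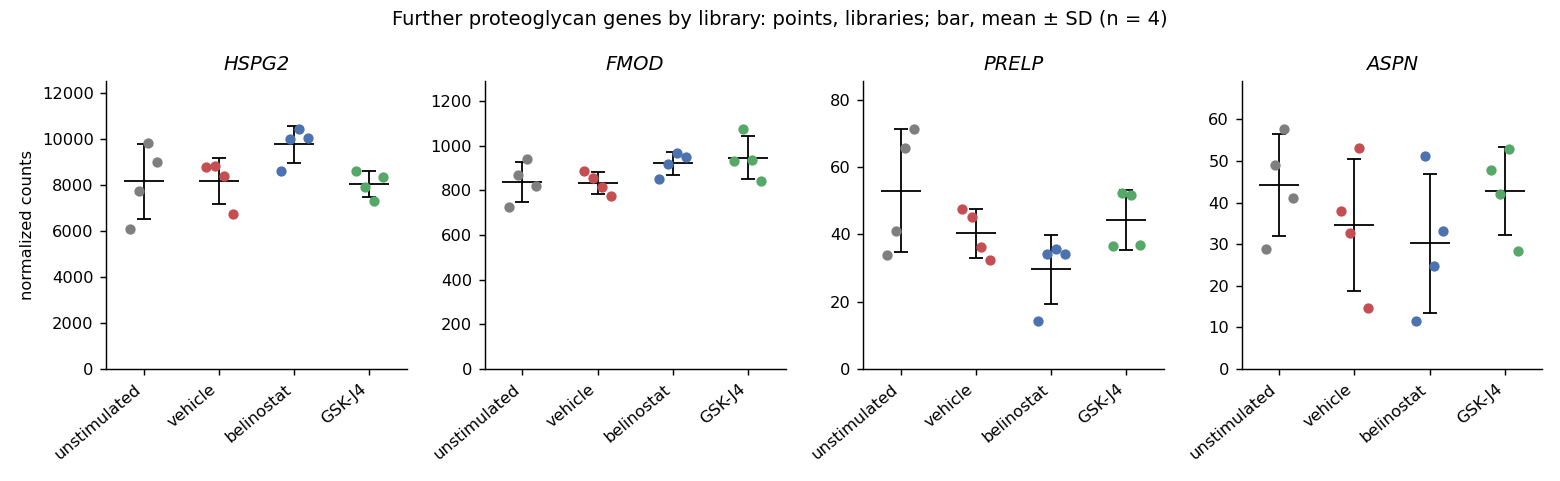
Normalized counts (linear axes from 0) of HSPG2, FMOD, PRELP and ASPN in each of 16 libraries, with the mean and SD of 4 libraries per group. The groups overlap for most of these genes, and belinostat replicate 17 gives the lowest PRELP (14.3) and ASPN (11.5) values.

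Reads from overlapping genes can be misassigned where strand is not used, and strand use is not given in the sources used here. VCAN-AS1 and LDLRAD2 share exon bases with VCAN and HSPG2 on the other strand. Neither exceeded 8.13 normalized counts in any library, far below VCAN and HSPG2. As these counts come from the same assignment of reads, they cannot show whether reads were misassigned.

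The other small leucine-rich proteoglycan genes gave no call. Of 10 listed, 4 were abundant enough to test, namely PODN, TSKU, PODNL1 and ECM2, and 0 were called by DESeq2 or by edgeR in any of the 6 comparisons, with 0 or 1 at an unadjusted p under 0.05 in each. The shares called over all genes tested by DESeq2 were 1.74% to 12.2%. At an unadjusted p under 0.05 they ran from 1449 of 16240 genes (vehicle against unstimulated) to 3331 of 14717 (belinostat against GSK-J4). PODN, which encodes podocan, had group means of 8806 to 10477 normalized counts. ECM2, the neighbour of ASPN, had the largest fold change, 0.68 ± 0.24 for belinostat against vehicle (DESeq2 adjusted p = 0.0693). In that comparison 1 of the 4 was called without belinostat replicate 17 or vehicle replicate 13, and with 2 surrogate variables between 0 and 2 of the 4 were called over the 6 comparisons. KERA and EPYC, which share the chromosome 12 cluster with LUM and DCN, and OMD and OPTC, from the other clusters, stayed at or below 5.71 normalized counts in every library.

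The next list holds enzymes that build the linker and the chondroitin or dermatan sulfate chains of DCN, BGN and VCAN. After the cytokine pulses 4 of 21 tested rose and none fell, where 1.10% of all genes tested rose. These were the dermatan sulfate epimerase homologue DSEL (0.31 ± 0.07), the chondroitin 4-O-sulfotransferase CHST11 (0.50 ± 0.12), the chain initiator CSGALNACT1 (1.53 ± 0.40, at 24.2 ± 9.28 normalized counts with vehicle) and the chain polymerase CHSY1 (0.21 ± 0.06). CHSY1 was at the threshold (DESeq2 adjusted p = 0.0499) and lost its call in 10 of 14 alternatives. CHST11 lost its call without unstimulated replicate 4, and CSGALNACT1 without that library or vehicle replicate 13 or 16. The edgeR test called 3 of the list, and leaving out single libraries gave 2 or 3. With belinostat against vehicle, 6 of 21 fell and none rose, where 3.13% of all genes fell and 3.12% rose. The median log2 fold change of the list was -0.12, beside 0.00 for all genes.

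XYLT2, a xylosyltransferase that starts the linker on the core protein, went from 1304 ± 17.6 normalized counts with vehicle to 1012 ± 56.9 with belinostat (-0.37 ± 0.05, DESeq2 adjusted p = 5.52e-11). CHSY1 went from 1202 ± 70.9 to 877 ± 44.9 (-0.45 ± 0.06, DESeq2 adjusted p = 1.80e-10). The sulfotransferase CHST15 (-0.32 ± 0.07) and DSEL (-0.28 ± 0.07) fell as well, and these 4 calls held under all alternatives. CHST11 (-0.41 ± 0.12) and CSGALNACT2 (-0.15 ± 0.05) were the other two, and these calls were lost in 7 and 9 of 14 alternatives. Between 4 and 7 genes of the list were called without single libraries. As the vehicle libraries enter both comparisons, belinostat was also set against unstimulated cells, where 3 of 21 were called beside a background of 10.3%. XYLT2 (-0.30 ± 0.05) and CHSY1 (-0.25 ± 0.06) were lower there too, and CSGALNACT1 was higher (1.17 ± 0.41). This CSGALNACT1 call was near the threshold (DESeq2 adjusted p = 0.0481) and was lost in 11 of 14 alternatives, edgeR among them. DSEL (0.03 ± 0.07), CHST11 (0.10 ± 0.13), CHST15 (-0.16 ± 0.07) and CSGALNACT2 (-0.03 ± 0.05) were not called. GSK-J4 against vehicle gave 1 of 21 lower, CSGALNACT2 (-0.19 ± 0.05), where 0.818% of all genes fell. That call was lost in edgeR, which called 0 of the list, and without GSK-J4 replicate 23 or vehicle replicate 15 or 16. Between the compounds 9 of 21 were called beside a background of 12.2%, 3 higher (6.18%) and 6 lower (6.01%) under belinostat, led by XYLT2 (-0.53 ± 0.05), CHSY1 (-0.44 ± 0.06), CHST15 (-0.46 ± 0.07) and CHST11 (-0.57 ± 0.12).

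Enzymes of heparan and keratan sulfate make the chains of HSPG2 and of LUM and FMOD. The heparan sulfate polymerase EXT1 rose after the cytokine pulses (0.19 ± 0.04), the only call among 21 tested. Over all genes tested, 1.74% were called there. With belinostat against vehicle, 1 of 17 rose, again EXT1 (0.13 ± 0.04), and 2 fell, the sulfotransferase CHST2 (-0.77 ± 0.16) and the extracellular sulfatase SULF2 (-0.33 ± 0.10). Over all genes tested, 3.12% rose and 3.13% fell in that comparison. The CHST2 call held throughout, whereas edgeR called neither EXT1 nor SULF2, and EXT1 was lost in 6 and SULF2 in 4 of 14 alternatives. GSK-J4 against vehicle gave 0 of 16 in DESeq2 and 0 in edgeR, where 1.92% of all genes were called. At an unadjusted p under 0.05 there were 2 of the 16, and 1321 of the 13197 genes tested. Belinostat against unstimulated cells gave 6 of 17, 2 higher and 4 lower, beside a background of 10.3%.

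Of 9 testable genes for enzymes that cleave proteoglycans, 4 were called between the compounds, 2 higher and 2 lower under belinostat. Over all genes tested, 12.2% were called there. Against vehicle, 3 of the 9 were called with belinostat and 2 with GSK-J4, beside 6.26% and 1.92% of all genes. ADAMTS5 differed between the compounds in the same direction as VCAN, a substrate of its protein, whereas ADAMTS8 and ADAMTS9 differed in the opposite direction. ADAMTS5 had 22224 ± 1606 normalized counts (SD, n = 4) with vehicle, 30128 ± 5872 with belinostat and 16576 ± 375 with GSK-J4. The log2 fold change was 0.44 ± 0.12 for belinostat against vehicle (DESeq2 adjusted p = 0.00936), -0.42 ± 0.12 for GSK-J4 against vehicle (DESeq2 adjusted p = 0.0358) and 0.86 ± 0.12 between the compounds (DESeq2 adjusted p = 2.29e-10). The last held under all alternatives, the GSK-J4 call was lost in edgeR and without any of 7 of the 8 libraries, vehicle replicate 16 being the exception, and the belinostat call was lost without belinostat replicate 18 or 20 or vehicle replicate 16. The aggrecanase-family genes ADAMTS8 and ADAMTS9 fell with belinostat against vehicle and held throughout. ADAMTS8 dropped from 529.6 ± 35.9 to 142 ± 60.7 normalized counts (-1.91 ± 0.28) and ADAMTS9 from 1516 ± 86.4 to 1025 ± 66.0 (-0.57 ± 0.06). With GSK-J4, ADAMTS9 was also lower (-0.22 ± 0.05), a call lost in edgeR and without GSK-J4 replicate 23 or vehicle replicate 15. In belinostat against GSK-J4, ADAMTS8 gave -1.92 (DESeq2 adjusted p = 6.73e-10) and ADAMTS9 -0.35 (DESeq2 adjusted p = 3.79e-08). Both of these calls held under all alternatives. HTRA1, a serine protease with decorin and fibromodulin among its substrates, was lower after the cytokine pulses (-0.25 ± 0.05). It was the 1 call among the 9 there, where 1.74% of all genes were called.

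**Figure D5:**
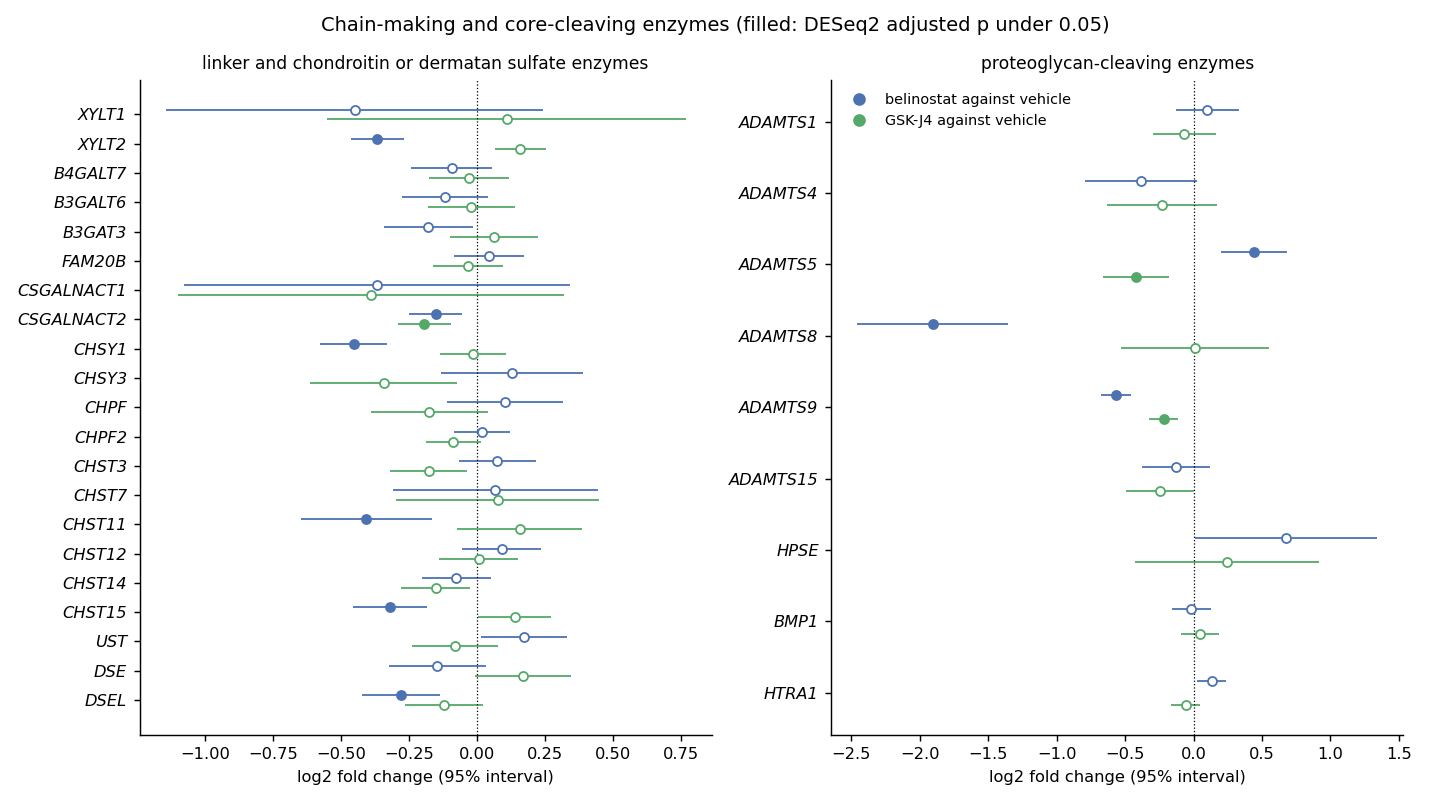
DESeq2 log2 fold changes with 95% intervals of 21 chain-making and 9 core-cleaving enzyme genes for belinostat and GSK-J4 against vehicle, with filled points for adjusted p under 0.05. Filled belinostat points in the left panel all lie below 0, from -0.15 to -0.45, and ADAMTS5 lies at 0.44 with belinostat and -0.42 with GSK-J4.

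Fibrillar collagens are ligands of these proteoglycans. The shares called over all genes were 6.26% for belinostat and 1.92% for GSK-J4 against vehicle, and 1.74% for vehicle against unstimulated cells. Among 7 testable fibrillar collagen genes, belinostat against vehicle gave 2 lower, COL5A3 (-1.39 ± 0.15) and COL1A1 (-0.29 ± 0.08, lost in edgeR), and 1 higher, COL11A1 (0.68 ± 0.14). GSK-J4 against vehicle gave COL1A2 (0.22 ± 0.04) and COL3A1 (0.22 ± 0.06) higher. Both were lost in edgeR, and COL3A1 also without any of 5 of the 8 libraries. After the cytokine pulses 0 of 7 were called by DESeq2 and 0 by edgeR. At an unadjusted p under 0.05 there was 1 of the 7, and 1449 of the 16240 genes tested. Of the other matrix and cell-surface proteoglycans, belinostat against vehicle gave TGFBR3, or betaglycan, lower (-0.41 ± 0.09) and the glypican GPC4 higher (0.29 ± 0.08) among 16 tested, the latter lost without vehicle replicate 13 or when only those groups were fitted. GSK-J4 gave the syndecans SDC1 (0.52 ± 0.13) and SDC3 (0.18 ± 0.05) higher and GPC4 lower (-0.28 ± 0.08) among 15. In edgeR 1 of these 3 was called, and each of them lost its call without some single libraries, in 3, 7 and 8 of 14 alternatives. Of 18 tested after the cytokine pulses, 0 were called by DESeq2 and 0 by edgeR. At an unadjusted p under 0.05 there were 3 of the 18, beside the same 1449 of 16240 genes. In GSK-J4 against unstimulated cells, 7 of 18 were called by DESeq2, 5 higher and 2 lower, and 3 by edgeR. Over all genes tested, 5.55% were called by DESeq2 there. Among those higher, CSPG4, a cell-surface chondroitin sulfate proteoglycan, was at 697 ± 60.5 normalized counts with GSK-J4 and 342 ± 58.4 in unstimulated cells (1.03 ± 0.17, DESeq2 adjusted p = 1.74e-07).

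For the members with a call and at least 50 normalized counts, the genes with the nearest pattern over the 16 libraries were taken from 11740 genes by the root mean square difference of centred log2 values. Nearest to LUM were LYN (0.10), PLPP7 (0.11) and CCN4 (0.11), where the spread of LUM itself was 0.23. Nearest to BGN were FN1, which encodes fibronectin (0.13), MOCOS (0.14) and AMPD3 (0.17), with a spread of BGN of 0.34. VCAN had more distant neighbours, ATP8A1 (0.22), ABCB1 (0.24) and PARM1 (0.25), with its own spread at 0.47. No other member was among these 9 genes.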

How the data were processed

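RNA of 16 Ccd18-Co cultures was sequenced by the study in 4 groups of 4, taken from the labels. The columns of the unstimulated libraries say none where their titles give DMSO, and they were matched by replicate number. Per the submitters' processing notes, FastQC 0.11.9, MultiQC 1.14 and kallisto 0.48.0 were used on hg38. The authors deposited estimated counts per gene symbol, not scaled to library size, of which 28.0% had decimals. They were rounded to whole numbers here. How kallisto shares reads between transcripts can affect genes with overlapping or similar transcripts. The estimates of LUM, FMOD and OGN were whole in all 16 libraries (tolerance 1e-06) and those of DCN, BGN, HSPG2 and PRELP in none. The transcriptome release is not given in the sources used here.

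The main test was DESeq2 1.42.0 (R 4.3.3; two-sided Wald test) on all 16 libraries fitted by group alone, with size factors by median of ratios and the default independent filter; the study's methods name DESeq2 too. The threshold was 0.05 on p-values adjusted by Benjamini-Hochberg over all genes tested, in 6 comparisons. Size factors divide the counts to give normalized counts, and intervals are 95% from the standard error. Counting intervals and floors cover counting error only. Alternatives were edgeR 4.0.16 (quasi-likelihood), 2 other scalings (TMM and total counts), a filter of at least 10 counts in 4 libraries, a fit of the groups compared only, 2 surrogate variables (sva 3.50.0) and leaving out each library. The scripts were tested on simulated data. Levels per kb used the canonical transcript of GENCODE 44, which was also the longest coding transcript of each member. Replicates were compared first, and no pair of libraries agreed within sampling noise.

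The text names all 9 members, up to 4 called genes per list and comparison by smallest adjusted p, and 3 nearest genes per called member. CSGALNACT2 and CHST11 in belinostat against vehicle, their uncalled values and those of DSEL and CHST15 in belinostat against unstimulated, and ECM2 in a fold change that was not called, were named after their values were seen. The members and lists were chosen with earlier results of these data known. The pathway lists were run under the alternatives after the data had been seen.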

Additional observations from a re-analysis of the deposited data

Results flagged for a closer look

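Dixon's test for a single value far from the others of its group was applied to 33 groups of 4 libraries at the 95% critical value, and chance alone marks about 1 group in 20. It marked 2. In the belinostat group, PRELP in replicate 17 was far below the others, at 14.3 normalized counts where they had 34.2 to 35.6. In unstimulated cells, OGN in replicate 3 was at 0.888 normalized counts, its only count, where the others had 0. With the others all at 0, any count is marked whatever its size, so this mark is no evidence of an outlier. The OGN groups without a count were not among the 33.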

How the results depend on the processing

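Over the alternatives, 672 member fold changes were refitted. Of these, 642 kept their side of the threshold, 14 lost a call, 16 gained one, and 0 called values changed sign. The calls of BGN and VCAN between the compounds, BGN in belinostat against vehicle and GSK-J4 against unstimulated, VCAN in belinostat against unstimulated, and LUM in both compounds against unstimulated held in every refit.

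For vehicle against unstimulated, the members called went from 1 to 0 in edgeR, 2 when those groups were fitted alone and 3 with 2 surrogate variables, and ranged from 0 to 2 without single libraries. All genes called went from 282 to 166 in edgeR and 504 with surrogate variables, and ranged from 180 to 295 without single libraries. For GSK-J4 against vehicle, the members went from 0 to 1 when those groups were fitted alone, and likewise to 1 with surrogate variables. All genes called there went from 253 to 91 in edgeR, 542 when those groups were fitted alone and 414 with surrogate variables, and ranged from 132 to 193 without single libraries. For belinostat against vehicle, the members ranged from 1 to 2 without single libraries. For belinostat against unstimulated, all genes called went from 1461 to 876 when those groups were fitted alone. The cause of these changes was not tested. Scaling by total counts moved the median of all genes by at most 0.02 on the log2 scale.

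No paired analysis was possible because the groups share no replicate numbers. Low counts limit PRELP, ASPN and OGN, and with 4 libraries a group, 1 library can decide a call, as replicate 17 did for LUM in belinostat against vehicle.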
